A study of Mus musculus with 8 samples.

Results

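Immediate early and cell-isolation stress genes are 31 genes picked by name, not by any measured value, from the 56832 rows of the deposited expression table. They were measured by RNA-seq in microglia sorted from the brains of young adult male 5xFAD mice, whose transgenes carry familial Alzheimer's disease mutations and are present in every group. One group of 4 libraries came from mice given ethanol by intraperitoneal injection (3 g/kg, as a 20% solution) on 5 days a week for 4 weeks, and the other 4 from mice given saline on the same schedule. Both groups then had 2 weeks of withdrawal before the cells were taken, and no library came from mice without the transgene or without injections. The comparison asks how microglia differ after repeated ethanol exposure and withdrawal. The labels number the libraries 1 to 4 in each group without saying that each is a separate mouse, so every p-value measures only the spread between these libraries.

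Immediate early genes are transcribed within minutes of a stimulus from transcription factors already present in the cell, without new protein synthesis, and many of their transcripts are short-lived. Heat shock genes are switched on by heat shock factor 1 when proteins misfold. In brain macrophages both sets are known to rise while tissue is dissociated and cells are sorted warm, so their level in sorted microglia can reflect the living brain, the handling of the cells, or both.

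The libraries held 14271351 to 17231301 reads assigned to genes, and the sums of 10 microglial markers such as P2ry12 and Tmem119 made up 4.77 to 5.05% of normalized counts in saline and 5.02 to 5.23% in ethanol libraries. Of 9 marker lists for other cell types, neutrophil markers reached the largest summed share in any library (0.0174 to 0.0964% in saline, 0.0167 to 0.0688% in ethanol). Astrocyte markers took 0.0443 to 0.0553% in saline and 0.0407 to 0.0587% in ethanol. They exceeded neutrophil markers in saline 2, saline 4, ethanol 1, ethanol 2 and ethanol 3. Lymphocyte markers stayed at or below 0.00676%, with Cd3e, Cd3d and Trac among those at 0 in all 8 libraries. No summed list was highest in saline 3 or in ethanol 1, the libraries that stand apart below, but single markers were: Vcan, a monocyte marker, was at 28.5 normalized counts in saline 3 and at 4.35 or less elsewhere. Ribosomal protein genes took 1.15, 1.17, 1.51 and 1.25% of normalized counts in saline 1 to 4 and 1.08, 1.09, 1.41 and 1.40% in ethanol 1 to 4. Mitochondrial mRNAs took 1.04, 0.905, 1.34 and 1.17% in saline and 0.865, 0.939, 1.20 and 1.22% in ethanol. Both shares were therefore highest in saline 3 and, within each group, higher in libraries 3 and 4 than in 1 and 2, and their part in the results that follow was not tested.

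Saline 3 stood apart from the other 7 libraries in these genes, so results are given with and without it. It was the highest library for 12 of the 27 members with enough signal to test (44.4%), whereas it was the highest for 13.7% of all tested genes, and it was the lowest for none of the 27. Fos, among the 12, reached the level for testing only through saline 3, so its place there was fixed in advance. The median log2 deviation of saline 3 from each gene's mean was 0.35 over the members and 0.01 over all tested genes. Together the 31 members took 0.229 to 0.338% of normalized counts in saline and 0.235 to 0.343% in ethanol libraries.

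Promoters are shown for 4 members whose library-to-library variation the results turn on, a pair from the immediate early genes and the pair of inducible Hsp70 genes. Each is the 250 bases before the annotated start in RefSeq, on build GRCm38.p6, which is older than the build used for the deposited data, written 5' to 3' on the gene's strand. Capitals mark a cyclic AMP response element (TGACGTCA, bound by CREB), its core (TGACG, which also lies inside the full element) or a heat shock element (GAANNTTC, bound by heat shock factor 1), searched on both strands. Fos lies on the plus strand at chr12:85473640-85473889, Dusp1 on the minus strand at chr17:26508473-26508722, Hspa1a on the minus strand at chr17:34972157-34972406 and Hspa1b on the minus strand at chr17:34959239-34959488.
Fos: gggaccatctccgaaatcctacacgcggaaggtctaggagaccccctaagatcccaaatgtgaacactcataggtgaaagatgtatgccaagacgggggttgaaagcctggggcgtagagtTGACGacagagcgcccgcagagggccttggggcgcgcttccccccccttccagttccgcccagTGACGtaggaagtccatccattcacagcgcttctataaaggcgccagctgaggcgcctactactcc
Dusp1: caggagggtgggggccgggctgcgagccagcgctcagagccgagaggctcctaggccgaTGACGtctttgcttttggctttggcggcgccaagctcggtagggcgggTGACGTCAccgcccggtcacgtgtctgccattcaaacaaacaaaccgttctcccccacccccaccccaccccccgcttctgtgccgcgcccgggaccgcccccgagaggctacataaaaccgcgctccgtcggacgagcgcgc
Hspa1a: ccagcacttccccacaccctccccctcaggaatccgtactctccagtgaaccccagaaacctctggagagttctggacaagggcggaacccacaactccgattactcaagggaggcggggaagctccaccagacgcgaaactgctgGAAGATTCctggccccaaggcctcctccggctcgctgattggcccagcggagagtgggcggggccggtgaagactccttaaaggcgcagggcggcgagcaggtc
Hspa1b: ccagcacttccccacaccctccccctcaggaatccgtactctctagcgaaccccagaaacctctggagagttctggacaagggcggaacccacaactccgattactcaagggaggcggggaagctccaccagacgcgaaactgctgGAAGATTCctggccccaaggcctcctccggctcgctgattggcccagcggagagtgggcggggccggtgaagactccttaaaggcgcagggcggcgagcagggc
In the Fos window, cores began 129 and 66 bases before the start, and a TATAAA began 33 bases before it. The Dusp1 window held a full response element 143 bases before the start and a further core at 191. The Hspa1a and Hspa1b windows matched at 247 of 250 positions, and both held a heat shock element 104 bases before the start. Of the 31 members, 25 had a window that was searched. Ier2, Hspa8, Hsp90aa1, Egr3 and Rgs1 had no entry in the RefSeq table used, and Egr1 was left out of the search. Among those 25 the full response element occurred in 3 (Btg2, Dusp1 and Maff; 1.55% of all 32851 windows), the core in 15 (17.8% of windows) and the heat shock element in 5 (Fosl2, Hspa1a, Hspa1b, Hspb1 and Jun; 6.69% of windows). The AP-1 site TGACTCA was in 0 of the 25 (4.46% of windows), and the CArG box, bound by serum response factor, in 2 (Egr2 and Zfp36; 1.47% of windows). TATAAA, read in the gene's direction only, was in 2 (Ccn1 and Fos; 7.59% of windows). A member counts if any of its windows matches, and Egr2, Maff and Dnajb1 have several, whereas the percentages are shares of single windows. The 2 measures are therefore not alike. A match is a string of letters and was not tested for binding.

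The level of the members spanned a wide range. Values are normalized counts, that is read counts divided by a factor for library depth, and levels of different genes were set against each other per kilobase of exon. On that scale the mean over the 8 libraries was 4218 for Hspa8, 1917 for Junb, 1376 for Btg2, 978 for Klf6, 846 for Zfp36, 836 for Jund and 771 for Jun. It was 33.4 for Egr1, 29.1 for Egr2 and 9.97 for Fos. At the low end stood Hspb1 at 2.11, Ccn1 at 1.40 and Fosb at 0.525 per kilobase. Of the 31 members, 27 averaged 10 normalized counts or more and entered the test, 24 had a read in every library, and Fosb, Maff, Ccn1 and Hspb1 were below the minimum.

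No member was found to differ between ethanol and saline. In limma with Benjamini-Hochberg adjustment over the 14428 genes tested, 0 of 27 members passed an adjusted p of 0.05, and 0 of all tested genes did (0%). At an unadjusted p below 0.05 stood 0 of 27 members and 3.63% of tested genes. The 4 ethanol and 4 saline values did not overlap for 0 of 27 members and for 2.32% of tested genes (1.12% with ethanol higher, 1.2% with ethanol lower). Fold changes are ethanol over saline and were fitted to log2(value + 1), so those of low genes can be understated and depend on the added count, and their 95% intervals cover the spread between libraries. The interval excluded a 2-fold change in either direction for 17 of the 27, among them all 9 members with a mean of at least 1000, and a 1.5-fold change for 12. In RNA from a population of cells, fewer cells expressing a gene and less RNA per cell cannot be told apart.

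**Figure D1:**
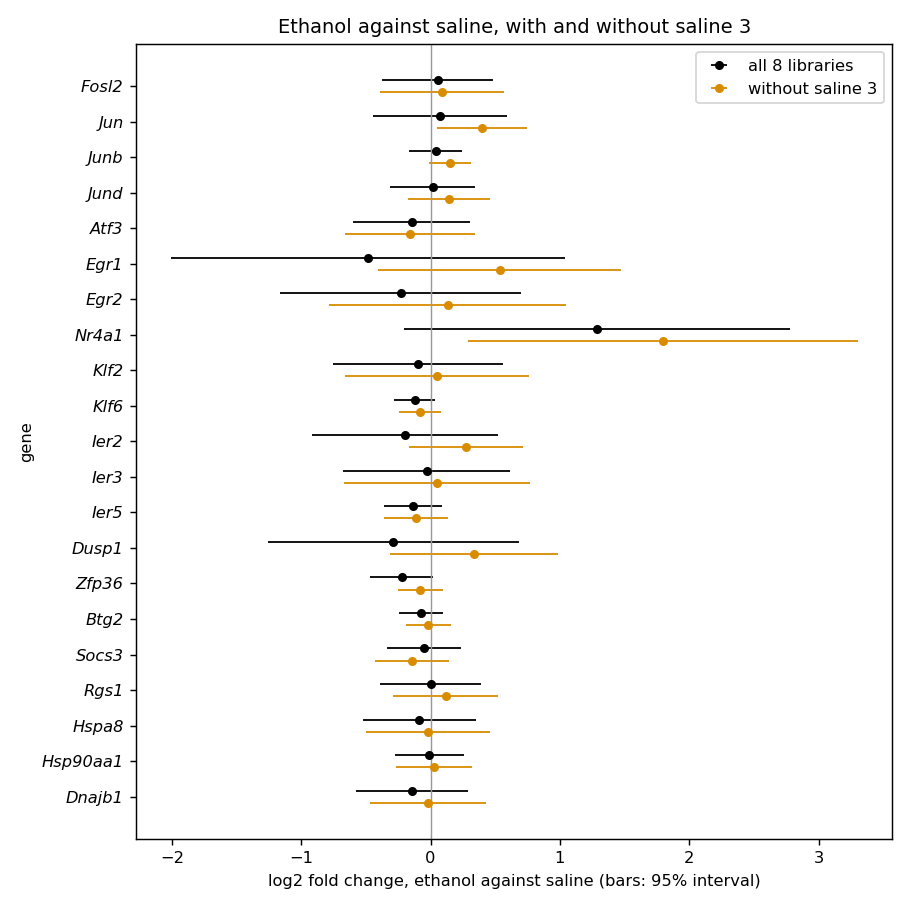
Log2 fold change, ethanol over saline, of the 21 members averaging 50 normalized counts or more, as points with 95% intervals on a linear axis of log2 units, from all 8 libraries (black) and without saline 3 (orange). With all 8 libraries every interval includes 0, and Egr1 moves from -0.48 to 0.53 and Dusp1 from -0.29 to 0.34 when saline 3 is left out.

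AP-1 is a dimer of Fos, Jun and ATF family proteins. Among its 6 tested members 4 fold changes were above 1 and 2 below, with a median log2 value of 0.03. Fos, the founding immediate early gene, was at 0 in saline 1, 2 and 4, at 181 normalized counts in saline 3, at 0 in ethanol 1 and 2, at 4.01 in ethanol 3 and at 2.06 in ethanol 4. These values rest on 178 reads in saline 3, 4 in ethanol 3 and 2 in ethanol 4, and the other 5 libraries had no Fos read, which allows up to 3 reads in each. Fos transcripts were thus at or near the counting floor in 7 of 8 libraries and clearly detected in 1. The fitted fold change was 0.538 (95% interval 0.0450 to 6.44; limma, adjusted p = 0.997), and with so many zeros it depends on the added count of 1. Without saline 3 it was 1.98 (adjusted p = 0.994). On the recovered reads edgeR gave a log2 fold change of -4.77 (adjusted p = 0.999) for Fos, and 3.75 without saline 3.

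Jun, the main dimer partner of Fos, was at 1844, 1704, 4410 and 1878 normalized counts in saline 1 to 4 and at 1871, 2064, 3591 and 2303 in ethanol 1 to 4. Saline 3 and ethanol 3 were the highest libraries, and the groups overlapped (means of 2459 ± 1303 and 2457 ± 776, SD, n = 4 each). The fold change was 1.05 (0.736 to 1.51; adjusted p = 0.997), and without saline 3 it was 1.32 (unadjusted p = 0.0280, adjusted p = 0.994 in limma). Junb, which replaces Jun in AP-1 dimers and is among the most abundant members per kilobase, was at 3854, 4029, 5435 and 4142 in saline and 4363, 4123, 4831 and 4506 in ethanol. Saline 3 and ethanol 3 were again highest, and the fold change was 1.03 (0.893 to 1.19). Jund, a Jun protein expressed in many resting cells, was at 1155, 1158, 1781 and 1448 in saline and at 1105, 1223, 1809 and 1479 in ethanol. Here ethanol 3 and saline 3 were level at the top, libraries 1 and 2 were the lowest in each group, and the fold change was 1.01 (0.806 to 1.27).

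The other AP-1 genes did not follow that order. Fosl2, which encodes the Fos-related protein Fra-2, was at 215, 232, 243 and 216 in saline and at 268, 338, 181 and 186 in ethanol, so its ethanol libraries lay on both sides of the saline ones (fold change 1.04, 0.772 to 1.40). Atf3, a stress-induced member of the ATF family, was at 140, 257, 177 and 172 in saline and at 165, 195, 163 and 138 in ethanol (fold change 0.904, 0.661 to 1.24), with saline 2 the highest. The untested pair Fosb, a close relative of Fos, and Maff, a small Maf protein, ranged from 0 to 12.2 and from 0 to 19.4 normalized counts.

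**Figure D2:**
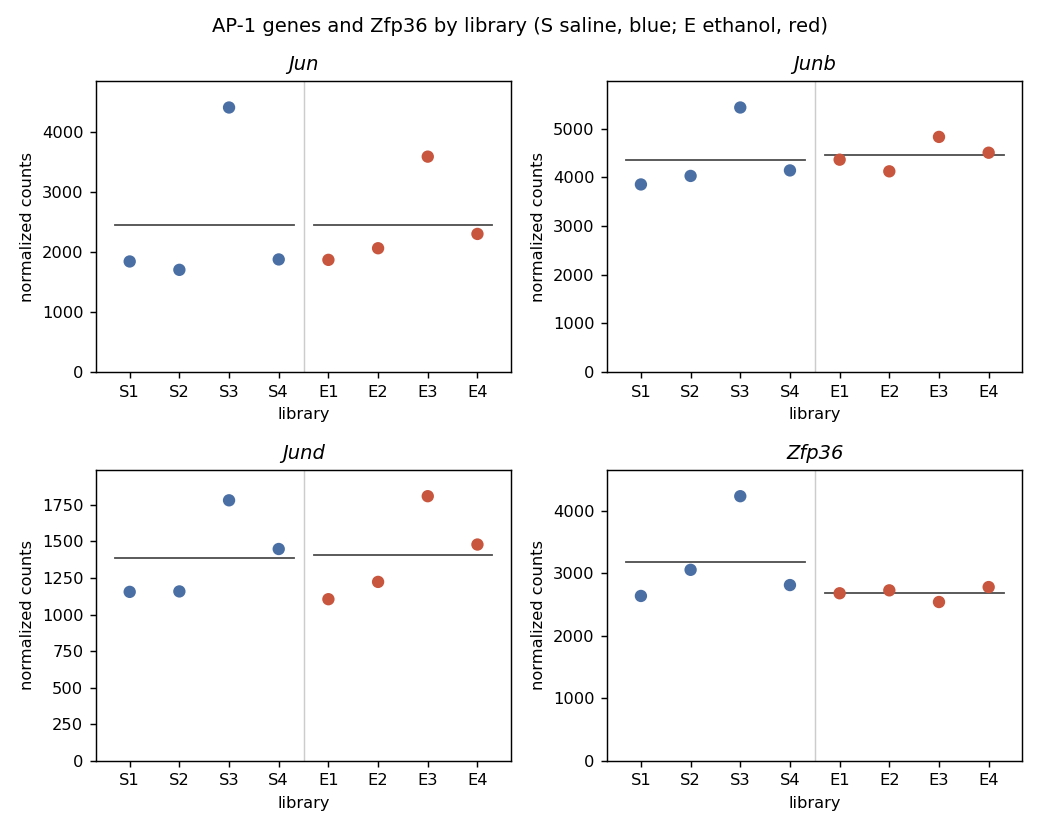
Normalized counts of Jun, Junb, Jund and Zfp36 in each library on linear axes starting at 0, with saline (S1 to S4) in blue, ethanol (E1 to E4) in red and a bar at each group's mean. Jun reaches 4410 in saline 3 and 3591 in ethanol 3 and stays at 2303 or less in the other 6 libraries, while Zfp36 is high in saline 3 alone.

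The zinc finger and nuclear receptor genes encode transcription factors induced in the same first wave. Of the 8, all tested, 2 fold changes were above 1 and 6 below (median log2 value -0.18), and without saline 3 the median was 0.09. Egr1, a growth factor-induced zinc finger factor, was at 62.0, 76.2, 772 and 19.1 normalized counts in saline and at 83.6, 63.2, 74.2 and 47.3 in ethanol. The saline 3 value was 9.23 times the next highest, and the remaining 7 libraries lay between 19.1 and 83.6. The fold change was 0.715 (0.248 to 2.06; adjusted p = 0.997), and 1.45 without saline 3 (adjusted p = 0.994). On the log2 scale limma gave -0.48, whereas the count models gave -1.78 (edgeR) and -1.79 (DESeq2), with 0 genes past the adjusted threshold in either. Its relative Egr2 was at 30.5, 122, 203 and 104 in saline and at 89.1, 50.1, 106 and 87.5 in ethanol, with saline 3 highest and saline 1 lowest (fold change 0.852, 0.447 to 1.62; 1.10 without saline 3).

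Nr4a1, an orphan nuclear receptor known as Nur77, had the largest fold change among the members in limma, though not in edgeR, where its log2 value was 0.77 and Fos, Egr1 and Egr3 were among those further from 0. It was at 4.62, 26.1, 97.9 and 89.9 in saline and at 64.1, 40.1, 130 and 137 in ethanol (54.6 ± 46.3 and 92.9 ± 48.1, SD, n = 4 each). In each group libraries 3 and 4 were above 1 and 2, and the groups overlapped. The fold change was 2.44 (0.869 to 6.85; limma, unadjusted p = 0.0857, adjusted p = 0.997), and 3.48 without saline 3 (unadjusted p = 0.0226, adjusted p = 0.994). The size leaned on saline 1, which had the lowest value, for without it the log2 fold change was 0.42 in place of 1.29.

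The Krüppel-like factors, zinc finger proteins, overlapped between the groups as well. Klf6, the most abundant of them, was at 4493, 4565, 4867 and 3992 in saline and at 4194, 4277, 3868 and 4110 in ethanol (fold change 0.920, 0.824 to 1.03). Klf2, a factor that restrains inflammatory gene expression in myeloid cells, was at 69.3, 86.9, 115 and 76.3 in saline and at 85.8, 44.1, 95.3 and 112 in ethanol (0.936, 0.594 to 1.48). Klf4, a related factor, was at 37.0, 26.1, 42.8 and 44.5 in saline and at 8.69, 57.1, 97.3 and 78.2 in ethanol (1.21, 0.520 to 2.81). Ethanol 1 was below every saline library and the other 3 ethanol libraries were above them all, so the overlap lay in ethanol 1. Without it the log2 fold change of Klf4 was 1.02 in place of 0.27 (limma, unadjusted p = 0.0128, with 0 genes past the adjusted threshold), without ethanol 3 it was -0.09, and edgeR on all 8 libraries gave 0.69. The nuclear receptor Nr4a2 ranged from 0 to 30.1 and the zinc finger gene Egr3 from 1.03 to 37.6 over the 8 libraries, with fold changes of 0.780 (0.147 to 4.13) and 0.751 (0.180 to 3.13). Neither direction held when single libraries were left out: the log2 fold change of Nr4a2 went from -0.36 to 0.50 without ethanol 1, and that of Egr3 from -0.41 to 0.27 without saline 2.

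**Figure D3:**
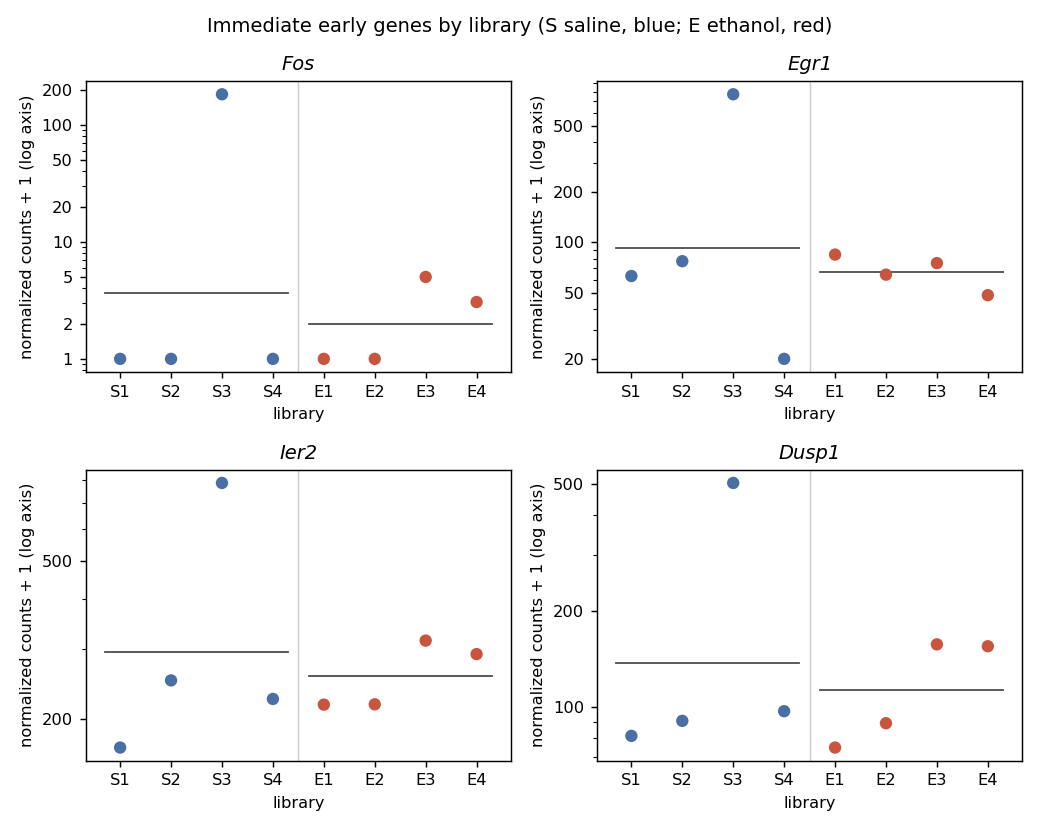
Normalized counts plus 1 of Fos, Egr1, Ier2 and Dusp1 in each library on log axes, with saline (S1 to S4) in blue, ethanol (E1 to E4) in red and a bar at the mean of each group's log values. Saline 3 is the highest library in all 4 genes, at 181, 772, 785 and 503 normalized counts.

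The feedback regulators and related early response genes include inhibitors of the signals that induce the set. Of 9 listed, 8 were tested, with 1 fold change above 1 and 7 below (median log2 value -0.10, and 0.02 without saline 3). Dusp1 encodes a phosphatase that switches off MAP kinases and was at 80.4, 89.7, 503 and 96.3 in saline and at 73.9, 88.2, 156 and 154 in ethanol. Saline 3 was 3.21 times the next highest library, and ethanol 3 and 4 lay above the remaining 5. The fold change was 0.820 (0.418 to 1.61), and 1.26 without saline 3. Ier2, a nuclear early response protein, was at 168, 249, 785 and 223 in saline and at 216, 217, 314 and 290 in ethanol, with the same top 3 libraries. Its fold change was 0.873 (0.531 to 1.44), and 1.21 without saline 3.

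Zfp36 encodes tristetraprolin, which binds AU-rich elements and speeds decay of cytokine transcripts. It was at 2638, 3056, 4235 and 2812 in saline and at 2681, 2728, 2541 and 2780 in ethanol, and had the lowest p of the members (fold change 0.857, 0.723 to 1.01; limma, unadjusted p = 0.0708, adjusted p = 0.997). Saline 3 alone stood high, and without it saline was at 2836 ± 210 (SD, n = 3) against 2683 ± 103 in ethanol (SD, n = 4), with a fold change of 0.947 (limma, adjusted p = 0.994). Btg2, an antiproliferative gene of the BTG/TOB family, was at 3902, 3657, 4349 and 3579 in saline and at 4044, 3453, 3769 and 3445 in ethanol (0.950, 0.843 to 1.07). Ier5, an early response gene that promotes heat shock factor 1 activity, was at 1097, 1221, 1175 and 1016 in saline and at 943, 1003, 1207 and 962 in ethanol (0.910, 0.779 to 1.06). For both genes the values of the groups interleaved.

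Socs3, an inhibitor of JAK/STAT cytokine signalling, was at 725, 692, 585 and 886 in saline and at 576, 712, 740 and 748 in ethanol (fold change 0.967, 0.792 to 1.18). It was lowest in ethanol 1 and next lowest in saline 3, unlike Zfp36 and Dusp1. Rgs1, which limits G protein signalling from chemokine receptors, was at 317, 259, 364 and 223 in saline and at 254, 240, 317 and 345 in ethanol (1.00, 0.763 to 1.31). Ier3, an early response gene linked to cell survival, was at 104, 50.2, 92.8 and 79.0 in saline and at 52.1, 98.2, 93.3 and 74.1 in ethanol (0.980, 0.626 to 1.53). Ccn1, a secreted matrix protein gene, was not tested and ranged from 0 to 14.5.

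Heat shock genes varied between libraries in another order. All 5 tested members had fold changes below 1 (median log2 value -0.15, and -0.02 without saline 3), none with an interval that excluded 1. Hspa8, the constitutive Hsc70 chaperone and the most abundant member per kilobase, was at 18160, 21642, 20539 and 12882 in saline and at 28692, 18062, 11947 and 13215 in ethanol. The extremes, ethanol 1 and ethanol 3, were both in the ethanol group, and the fold change was 0.942 (0.695 to 1.28; adjusted p = 0.997). Without ethanol 1 its log2 fold change was -0.34 (limma, unadjusted p = 0.0399), with 0 genes past the adjusted threshold. Dnajb1, an Hsp40 co-chaperone of Hsp70, was at 1312, 1965, 2007 and 1092 in saline and at 2102, 1355, 1009 and 1312 in ethanol, with ethanol 1 highest and ethanol 3 lowest as for Hspa8 (0.904, 0.670 to 1.22). Hsp90aa1, the inducible Hsp90, spanned 691 to 907 in saline and 739 to 1025 in ethanol, also highest in ethanol 1 (0.994, 0.825 to 1.20).

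The stress-inducible Hsp70 genes were near the floor in some libraries and clear in others. Hspa1a was at 4.62, 8.69, 60.1 and 0 in saline and at 66.3, 0, 0 and 11.3 in ethanol. Hspa1b was at 7.40, 35.7, 133 and 2.73 in saline and at 156, 1.00, 8.02 and 1.03 in ethanol. Both were highest in ethanol 1 and saline 3, 1 library of each group. Their longest open reading frames, in the GENCODE M21 transcripts, were identical at 99.4% of aligned positions with an identical run of 638 bases, so how reads fell between the pair is uncertain. Their sum, which such a split does not touch, was 223 in ethanol 1, 193 in saline 3 and 44.4 or less in the other 6 libraries. How reads that match both genes were counted is not given, and if they were left out the sum is too low. The fold changes were 0.706 (0.0893 to 5.59) for Hspa1a and 0.440 (0.0687 to 2.83) for Hspa1b. They rested on the 2 high libraries: the log2 fold change of Hspa1a went from -0.50 to 0.50 without saline 3 and to -1.72 without ethanol 1, and that of Hspa1b from -1.18 to -0.26 and to -2.57 (limma, unadjusted p = 0.0353 for the last, with 0 genes past the adjusted threshold). In edgeR the 2 were at 0.08 and -0.10. Hspb1, the small heat shock protein Hsp27, was not tested: it had 9, 1, 8 and 0 reads in saline 1 to 4 and 0 in every ethanol library, where a count of 0 allows up to 3 reads.

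**Figure D4:**
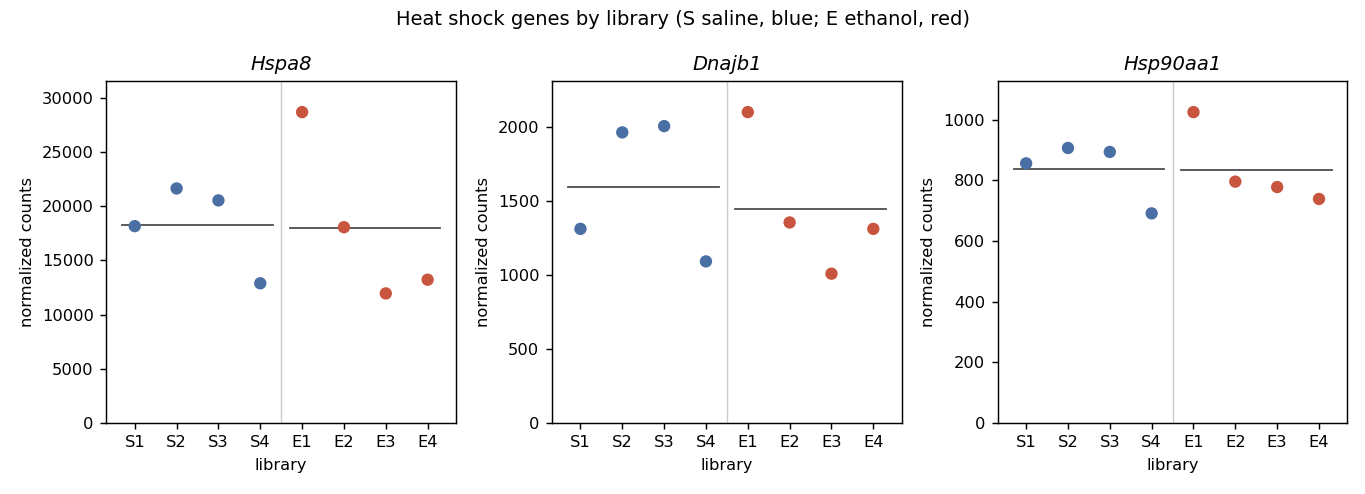
Normalized counts of Hspa8, Dnajb1 and Hsp90aa1 in each library on linear axes starting at 0, with saline (S1 to S4) in blue, ethanol (E1 to E4) in red and a bar at each group's mean. Ethanol 1 is the highest library in all 3 genes, at 28692, 2102 and 1025 normalized counts, and the groups overlap in each.

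The direction of the list as a whole rested on saline 3. With all 8 libraries 7 of 27 fold changes were above 1 and 20 below, with a median log2 value of -0.12, against -0.01 and 48.8% above 1 over all tested genes. Without saline 3, 16 were above and 11 below, the median was 0.05 (all tested genes -0.01), and 9 members had changed direction. In that comparison 0 of 27 members and 0 of all genes (0%) passed the adjusted threshold, and Jun and Nr4a1 were the 2 members at an unadjusted p below 0.05, a level reached by 4.28% of all genes.

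The members varied more within groups than many genes of like level. The SD of log2 values around the group means was compared with that of the 500 tested genes nearest in mean, and for 12 of 27 members it lay above 95% of them. Fos, among the 12, reached the level for testing only through saline 3, so its wide spread was fixed in advance. For Hspa8 it was 0.47 where the median of like genes was 0.09, for Jun 0.54 where it was 0.12, and for Dnajb1 0.44 where it was 0.14. Without saline 3, 9 members lay above 95%, namely Jun, Jund, Egr1, Nr4a1, Nr4a2, Hspa1a, Hspa1b, Hspa8 and Dnajb1. The like genes were still those nearest in mean over all 8 libraries. Egr1 averaged 150 over the 8 but was at 83.6 or less without saline 3. Fos averaged 23.4 and was at 4.01 or less. Both were thus ranked against genes of higher level, so their places without saline 3 say little. Without that library Fos fell to the 66.8 percentile, Ier2 to 72.2, Dusp1 to 78.6 and Zfp36 from 93.4 to 20.4. The wide spread of Zfp36, Ier2 and Dusp1 thus lay in saline 3, whereas Jun, Nr4a1, Hspa8 and Dnajb1 were above 95% of like genes with and without it.

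Some of the immediate early members shared an order of libraries. Saline 3, ethanol 3 and ethanol 4 were the 3 highest for Fos, Jun, Junb, Jund, Nr4a1, Klf2, Ier2 and Dusp1, 8 of 22 tested immediate early members, and for 5.28% of all tested genes. Fos, among the 8, was tested only through saline 3. Its place in this order rests on 4 reads in ethanol 3 and 2 in ethanol 4, so it adds little to the count. Of 21 tested immediate early genes outside the members, a list described below, 0 had this order. Egr1 and Zfp36 stood high in saline 3 and not in ethanol 3 or 4. Other members, such as Fosl2, Atf3 and Socs3, had neither order. The first order was also that of some cell type markers, among them the neutrophil marker Retnlg and the monocyte markers Plac8 and Ly6c2. Retnlg was at 353 in saline 3, 352 in ethanol 3 and 572 in ethanol 4, and at 18.5 to 222 elsewhere. The summed neutrophil share was highest in saline 1 (0.0964%), followed by ethanol 4 (0.0688%), saline 3 (0.0497%) and ethanol 3 (0.0368%). Saline 3, ethanol 3 and ethanol 4 were also the 3 libraries with the highest ribosomal protein shares (1.40 to 1.51%) and mitochondrial mRNA shares (1.20 to 1.34%), and the part of these shares and markers in the order was not tested. For the heat shock genes, ethanol 1, saline 2 and saline 3 were the 3 highest in 4 of 5 tested members (all but Hspa1a) and in 2.04% of all tested genes. These orders were noticed in the data and are given as a description.

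**Figure D5:**
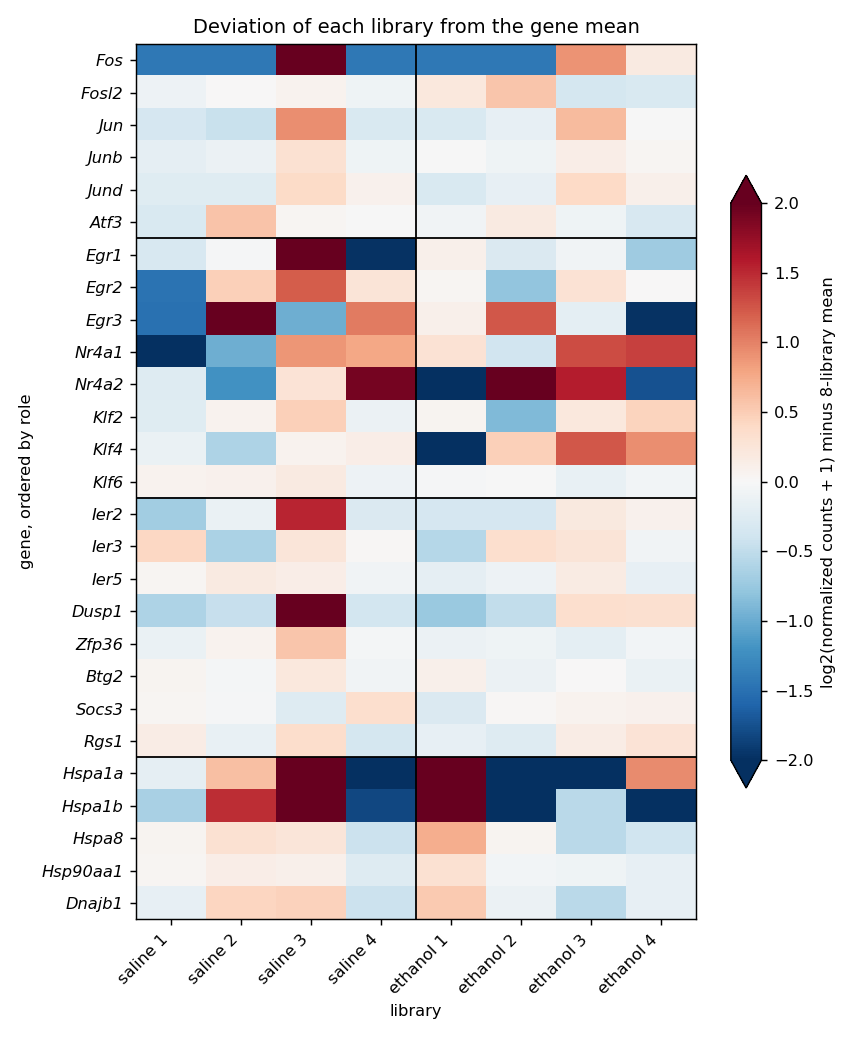
Log2 deviation of each of the 27 tested members from its mean over the 8 libraries, with genes as rows, libraries as columns and a colour scale capped at 2 in both directions. The saline 3 column is above the mean in 25 of 27 genes, and the heat shock genes are highest in ethanol 1.

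Correlations over the 8 libraries were computed for 25 pairs, Fos with each of 21 tested immediate early members and Hspa1a with each of 4 heat shock members, on log2 values with exact two-sided permutation tests and Benjamini-Hochberg adjustment over the 25. The highest values with Fos were those of Dusp1 (r = 0.986, rho = 0.873), Ier2 (r = 0.972, rho = 0.873), Junb (r = 0.919, rho = 0.873) and Jun (r = 0.911, rho = 0.873). Fos averaged over 10 only through saline 3 and was tied at 0 in 5 libraries, so the tests say little beyond the order of 3 libraries. In the exact permutation test each of these 4 had p = 0.00298 and adjusted p = 0.0186 for r, and p = 0.00595 and adjusted p = 0.0372 for rho, where the p for r is the smallest that these ties allow. Jund followed with r = 0.757 (exact permutation p = 0.00893, adjusted p = 0.0446) and rho = 0.846 (exact p = 0.0179, adjusted p = 0.0744). Leaving out saline 3 and ethanol 3, the libraries farthest from the Fos median, r was 0.935 for Dusp1, 0.813 for Jun, 0.701 for Ier2, 0.692 for Junb and 0.651 for Jund, but Fos then had reads in ethanol 4 alone, so these relations rest on 3 libraries. Without saline 3, without ethanol 3 or without ethanol 4, 0 of the 25 passed. Each of these omissions removes a library with Fos reads. With the ties that remain, a few Fos pairs cannot pass the adjustment even at their smallest possible p. No conclusion is drawn from that 0 for the Fos pairs.

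Egr1 and Zfp36 did not pass with Fos (Egr1 r = 0.861, exact permutation p = 0.0685, adjusted p = 0.156; Zfp36 r = 0.832, exact permutation p = 0.110), and without saline 3 and ethanol 3 their r was -0.11 and 0.00. Hspa1a did not pass with any heat shock member: r was 0.856 for Dnajb1 (adjusted exact permutation p = 0.0533), 0.782 for Hspa1b (0.0818), 0.745 for Hsp90aa1 (0.0980) and 0.713 for Hspa8 (0.129). The numbers in the library names, whose meaning the labels do not give, were 163 for saline 3 and ethanol 3, 164 for saline 1, saline 4 and ethanol 4, and 165 for saline 2, ethanol 1 and ethanol 2, too few for a correlation within a set. The 163 libraries are the 2 highest for Fos, Jun, Junb, Jund, Ier2 and Dusp1, and the permutation tests treat the libraries as exchangeable. With that number as a covariate the log2 fold change of Jun was 0.11 with an SE of 0.099, in place of 0.07 and 0.24, and 0 genes passed (limma). As a description, the median r over all pairs was 0.831 among the 5 heat shock members, 0.277 among the 22 immediate early members and -0.00143 among all tested genes, computed on an evenly spaced sample of 1443. Without saline 3 the medians of the members were 0.795 and 0.0914. The libraries share depth and size factors, so no p is attached to these medians.

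The 10 genes most like Fos over the 8 libraries, among 9870 named genes averaging 50 or more, were Dusp1 (r = 0.986), Ier2 (0.972), Tomm7 (0.950), Sesn2 (0.944), H2az1, Rpl36 and Abracl (0.939 each), Ppp1r11 (0.936), Bloc1s4 and Rabac1 (0.935 each). Dusp1 and Ier2, the 2 at the top, are members. The others include a ribosomal protein gene, Rpl36, and a gene for a subunit of the mitochondrial import channel, Tomm7. These r values are a description of 8 libraries, of which 5 had no Fos read.

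Related genes outside the 31 gave the same result for the comparison. Of 103 genes in 5 lists 88 were tested, and 0 passed the adjusted threshold (limma). Further genes reported in microglia activated during isolation, 9 of 11 tested, all had fold changes below 1 (median log2 value -0.20), from -0.01 for the chemokine gene Ccl4 to -0.33 for Nfkbiz, an NF-kappaB cofactor. Saline 3 was above the gene mean in 9 of these 9 and the highest library in 4, and without it 7 of 9 were below 1 with a median of -0.13. Txnip, a thioredoxin inhibitor in that list, averaged 4883 ± 368 over the saline libraries and 4255 ± 211 over the ethanol ones (SD, n = 4 for both), groups that did not overlap, with a fold change of 0.873 (limma, unadjusted p = 0.0157). Rhob, in the same list, had a fold change of 0.909 (limma, unadjusted p = 0.0449), with groups that overlapped. Elk3, described below, and Plk3, of the further immediate early genes, were the other tested genes of the 5 lists without overlap. Plk3 was higher in ethanol (fold change 1.16; limma, unadjusted p = 0.0629). Of all tested genes 2.32% had no overlap and 3.63% an unadjusted p below 0.05, so no weight is put on these genes.

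In the other 4 lists the log2 fold changes centred near 0. The genes named at each end averaged at least 50, and tested genes below that level reached further. With these the values ran from -0.93 to 0.70 for further immediate early genes. They reached up to 0.66 for further chaperones and down to -0.28 for AP-1 partners. Further immediate early genes, 21 of 32 tested, had 11 above 0 and 10 below (median 0.01), from 0.27 for Myc to -0.36 for Nfil3. Further chaperones and heat shock factor targets, 20 of 22 tested, had 5 above and 15 below (median -0.05), from 0.11 for Fkbp4 to -0.30 for Hsph1. Hsph1, an Hsp110 chaperone, was at 613, 726, 723 and 321 in saline and at 829, 478, 287 and 394 in ethanol. Ethanol 1 was the highest library for 11 of these 20 chaperones (11.9% of all tested genes) and ethanol 3 the lowest for 9 (16.0% of all tested genes), the same extremes as for Hspa8 and Dnajb1.

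Upstream kinases and transcription factors, all 27 tested, had 10 above 0 and 17 below (median -0.02), from 0.18 for the ternary complex factor gene Elk3 to -0.31 for Atf1. Elk3 averaged 2058 ± 148 over the saline libraries and 2325 ± 93.4 over the ethanol ones (SD, n = 4 for both) without overlap (limma, unadjusted p = 0.0434). The partners of AP-1 dimers, all 11 tested, had 3 above and 8 below (median -0.06), from 0.09 for Jdp2 to -0.18 for Batf.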

How the data were processed

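The deposited table holds DESeq2-normalized read counts per gene symbol (a signal: each library's counts over its own size factor), made by the authors. The submitters' processing notes name bcl2fastq 2.19.1, STAR 2.7.9a, Subread, featureCounts 2.0.1, Salmon 1.5.2, DESeq2, R 4.2.2 and build GRCm39. Which tool did what, with which settings and annotation, is not given in the sources used here. A kit that keeps no strand amplified 500 pg of RNA per the labels' protocols, 150 pg of cDNA entered the tagmentation libraries, and 150 nt paired reads were made. Without molecular identifiers, amplified reads are not independent molecules, and limits from 0 reads cover counting error only. Whole reads were recovered from the deposited signal for 100% of non-zero values, within a tolerance of 1e-06.

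Genes averaging 10 normalized counts or more were tested with limma 3.58.1 in R 4.3.3 (log2 of the value plus 1, trended variance, two-sided, Benjamini-Hochberg over all tested genes, threshold 0.05). The code was tested on simulated data. Alternatives were edgeR 4.0.16 and DESeq2 1.42.0 on the recovered reads, voom, other pseudocounts, filters and normalization, the library number, a replicate block and leaving out each library. Leaving out saline 3 in edgeR was added after seeing the data. Every member is accounted for: members with a mean of at least 50 have values in every library or by range, and each related list gives its highest and lowest gene with a mean of at least 50. Txnip, Rhob, Plk3, Elk3 and Hsph1's library values were chosen after seeing them. Exon lengths are from GENCODE M21 (GRCm38), matched by symbol for all 31 members. The members and lists were chosen with earlier results of these data known.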

Additional observations from a re-analysis of the deposited data

Results flagged for a closer look

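In 8 of 54 groups of 4 (27 tested members in saline and in ethanol), 1 library stood far from the other 3 by Dixon's criterion at the 95% level, its gap to the nearest library taking most of the group's range. Chance marks about 1 in 20 groups, and over all tested genes 5.53% of groups were past it. Of the 8, 6 were saline 3: Fos at 181 normalized counts, Jun at 4410, Egr1 at 772, Ier2 at 785, Dusp1 at 503 and Hspa1a at 60.1. The other 2 were ethanol 1, with Hspa1a at 66.3 and Hspa1b at 156. Fos reached the level for testing only through saline 3, so its mark was fixed in advance. Hspa1a and Hspa1b had most of their counts in saline 3 and ethanol 1, so their marks say little. Hspa1a and Hspa1b are near-identical in sequence, and their reads could not be told apart with certainty.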

How the results depend on the processing

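No gene and no member passed the adjusted threshold under any alternative run, among them limma with a threshold of 0.1, edgeR, DESeq2, voom, the replicate block and leaving out each library. At an unadjusted p below 0.05 limma had 245 genes higher, 279 lower and 0 members, edgeR 251 higher, 244 lower and 2 members (Fos and Egr1, both lower in ethanol), DESeq2 391 higher, 386 lower and 2 members (Zfp36 and Hspb1, both lower) and voom 276 higher, 270 lower and 0 members. DESeq2 gave no p for Fos and Egr1. Over all tested genes, correlations of the deviations of same-numbered libraries were 0.0138 to 0.0796, within the -0.105 to 0.137 of differently numbered ones. With the replicate block the SE of Jun was 0.096 in place of 0.24, and that of Ier3 0.326 in place of 0.306. Whether the replicate numbers pair the libraries was therefore not settled. With the replicate block Nr4a1 had an unadjusted p of 0.0207 (adjusted p = 0.987, limma), and 0 genes passed.

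The median log2 fold change of the members ran from -0.15 to 0.05 when 1 library was left out, and in edgeR without saline 3 it was 0.13. The number of pairs past the threshold for correlation, 5, was 0 to 5 with 1 library left out and 1 after quantile normalization. The 0 came without saline 3, without ethanol 3 or without ethanol 4, where the ties in Fos leave its pairs little room to pass. The cause of the other shifts was not tested. The lowest and highest log2 fold changes when each library was left out in turn were -0.12 and 0.18 for Fosl2, -0.12 and 0.40 for Jun, -0.014 and 0.15 for Junb, -0.11 and 0.15 for Jund, -0.27 and 0.020 for Atf3, -1.22 and 0.53 for Egr1, -0.76 and 0.13 for Egr2, -0.26 and 0.19 for Klf2, -0.46 and 0.28 for Ier2, -0.24 and 0.16 for Ier3, -0.54 and 0.34 for Dusp1, -0.14 and 0.054 for Socs3, -0.12 and 0.12 for Rgs1, -0.34 and 0.081 for Hspa8, -0.11 and 0.046 for Hsp90aa1 and -0.34 and 0.0095 for Dnajb1. For members averaging under 50 they were -1.52 and 0.98 for Fos, -0.98 and 0.27 for Egr3, -1.15 and 0.50 for Nr4a2, -0.09 and 1.02 for Klf4, -1.72 and 0.50 for Hspa1a and -2.57 and -0.26 for Hspa1b. Nr4a1, Klf6, Ier5, Zfp36 and Btg2 kept their sign in every alternative run. With the library-name number as a covariate the sign turned for Fosl2 (-0.056), Ier3 (0.080) and Socs3 (0.016). With array weights it turned for Ier3 (0.027) and Rgs1 (-0.034). In edgeR it turned for Rgs1 (-0.0027) and Hsp90aa1 (0.00024), in DESeq2 for Jun (-0.00094) and Rgs1 (-0.0076), and after quantile normalization for Hsp90aa1 (0.0079). The depth limits what can be said of Fos, Fosb, Ccn1, Hspa1a and Hspb1, which had 0 reads in several libraries.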
